A study of Rattus norvegicus with 15 samples.

Results

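Wnt ligands, the Frizzled and Lrp receptors that read them, the secreted proteins that block them and the first steps of the signal inside the cell were followed in rat lung by RNA-seq. The genes were chosen by name, from the Wnt, Frizzled, Sfrp and Dkk families together with 20 further genes of the pathway, and by a level of at least 1 FPKM in at least 5 of 15 libraries. FPKM counts sequenced fragments per length of gene and per depth of library. Of 22250 genes in the deposited table, 54 carried one of the names and 33 met the minimum. Axin1 and Znrf3, which the name list also holds, were not analysed here. The study compared 3 groups of wild-type (WT) rats with 5 libraries each. WDD rats received LPS and smoke, for which the labels name the tracheal route, and Wendan Decoction by stomach tube. COPD rats received the same LPS and smoke without the decoction, and control rats were the normal controls. LPS is lipopolysaccharide, a component of the bacterial outer membrane that provokes inflammation, COPD is chronic obstructive pulmonary disease, and Wendan Decoction is a herbal formula of traditional Chinese medicine. The sources used here do not give strain, age, sex, dose or duration. The labels number the libraries of a group without saying that each came from a separate rat, so the p-values measure the spread between these libraries.

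Wnt proteins are lipid-modified by Porcn, carried to the cell surface by Wls and bind a Frizzled receptor together with Lrp5 or Lrp6. In the canonical branch this stops the complex that holds Apc and Axin from marking beta-catenin (Ctnnb1) for destruction, so that beta-catenin reaches the nucleus and acts with Tcf and Lef factors on target genes, among them the inhibitor Axin2. In the adult lung Wnt signals are known to maintain alveolar type 2 cells, and Wnt and R-spondin signals pass between the epithelium and the mesenchyme beneath it.

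TCF and LEF factors bind DNA at a short element, so the promoters of the 33 genes were searched for it. The letters searched were ATCAAAG and TTCAAAG on both strands, which differ in their first letter, so that no stretch matches both. RefSeq promoter windows on the rat build GRCr8, each running from 250 bases before a gene's start to 50 bases after it, were matched by symbol, and 24 of the 33 genes had exactly 1 window. A match was found in 3 of the 24 windows (12.5%), against 2921 of all 33469 windows in the same table (8.73%). The windows of Axin2, Nkd1 and Fzd7, which hold the matches, are shown with that of Wif1, whose window held none. On the log2(FPKM + 1) scale Wif1 had the largest change of the 33 genes in COPD against control. Capitals mark the matched letters, all of them on the opposite strand, so that they read CTTTGAA or CTTTGAT here. The Axin2 window is chr10:94398535-94398834 on the plus strand, that of Nkd1 chr19:34722797-34723096 on the minus strand, that of Fzd7 chr9:68425288-68425587 on the plus strand and that of Wif1 chr7:58433329-58433628 on the plus strand.
Axin2: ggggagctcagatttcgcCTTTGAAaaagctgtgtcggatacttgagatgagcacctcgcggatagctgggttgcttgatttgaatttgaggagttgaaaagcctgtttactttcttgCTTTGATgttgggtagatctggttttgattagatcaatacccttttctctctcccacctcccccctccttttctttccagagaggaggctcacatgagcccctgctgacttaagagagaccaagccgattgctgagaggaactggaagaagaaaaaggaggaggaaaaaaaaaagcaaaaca
Nkd1: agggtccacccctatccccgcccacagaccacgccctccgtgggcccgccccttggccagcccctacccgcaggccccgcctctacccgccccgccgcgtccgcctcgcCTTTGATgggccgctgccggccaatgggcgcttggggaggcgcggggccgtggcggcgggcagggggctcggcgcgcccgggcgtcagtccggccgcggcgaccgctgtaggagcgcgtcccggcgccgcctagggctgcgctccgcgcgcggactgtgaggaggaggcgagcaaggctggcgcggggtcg
Fzd7: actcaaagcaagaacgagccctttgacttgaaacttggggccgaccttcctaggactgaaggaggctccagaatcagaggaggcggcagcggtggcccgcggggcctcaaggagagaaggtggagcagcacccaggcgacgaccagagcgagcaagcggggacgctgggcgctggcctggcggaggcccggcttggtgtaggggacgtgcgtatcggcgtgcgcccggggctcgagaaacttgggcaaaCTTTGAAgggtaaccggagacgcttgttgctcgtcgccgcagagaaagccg
Wif1: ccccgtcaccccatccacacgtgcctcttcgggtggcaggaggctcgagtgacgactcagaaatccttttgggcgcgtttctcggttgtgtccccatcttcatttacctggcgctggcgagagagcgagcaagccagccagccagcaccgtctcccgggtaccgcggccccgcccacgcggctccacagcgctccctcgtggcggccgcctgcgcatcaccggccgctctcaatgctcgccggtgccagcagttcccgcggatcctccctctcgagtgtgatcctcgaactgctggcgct
Matches began 232 and 132 bases before the start in Axin2, 141 bases before it in Nkd1 and 1 base before it in Fzd7. A match describes these letters in the window and is no measure of binding.

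Several measures of whole libraries differed between the groups and bear on every level below. The tissue carried the markers of lung, the FPKM of the alveolar type 2 markers summing to 19854 to 23247 in WDD, 3199 to 14527 in COPD and 16841 to 25565 in control libraries. Neutrophil markers summed to 116 to 697 in WDD, 15127 to 50247 in COPD and 168 to 261 in control libraries. The percentage of all FPKM held by transcripts of the mitochondrial genome was 19.1 to 26.5 in WDD, 33.7 to 65 in COPD and 5.19 to 9.62 in control libraries. A list of 36 long housekeeping genes that met the minimum had a median log2(FPKM + 1) of 2.75 to 3.01 in WDD, 1.93 to 2.41 in COPD and 3.54 to 4.10 in control libraries. The 45 short ones that met it had 6.45 to 6.99 in WDD, 5.61 to 6.89 in COPD and 5.42 to 6.08 in control libraries. The relative depth of the libraries, read from the smallest steps between low values, ran from 0.875 to 1.10 of that of control 2. Over the 30 pairs of libraries within a group, the standard deviation of log2 differences across genes was 0.902 to 0.974 in the pairs that hold COPD 5, which stood furthest from its group, and 0.560 or less in all others. WDD 4 and WDD 5 were the most alike, at 0.234 against 0.342 in the next pair.

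COPD lungs had less RNA of nearly every Wnt gene than control lungs. Of the 33 genes, 32 fell and 1, Sfrp2, rose, by limma on log2(FPKM + 1) with Benjamini-Hochberg adjustment over 13172 genes and a threshold of 0.05. Most of the transcriptome moved the same way, since 66.4% of all genes tested were called lower in COPD and 8.23% higher. The median log2 fold change was -1.65 over the Wnt genes and -0.81 over all genes. All 5 COPD libraries lay below all 5 control libraries for 32 of the 33 Wnt genes, as they did for 52.3% of all genes. Fewer cells of a type and less RNA per cell cannot be told apart in these bulk samples, and whether the share of mitochondrial RNA or the neutrophil content has a part in these differences was not tested.

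To set the Wnt genes against the rest of each library, the fit was repeated after median-of-ratios scaling, which divides a library by the median ratio of its genes to their geometric mean over libraries and puts the median change of all genes at -0.05. On that scale 28 Wnt genes were lower in COPD than in control libraries, where 32.3% of all genes were, and 1 was higher, where 30.2% were. The median of the Wnt genes was then -1.03. Rspo1, Tcf7l1, Nkd1 and Wnt2 no longer passed. Long housekeeping genes also lay lower in COPD on this scale, with a median of -0.83, and short ones higher, with a median of 1.31, and the part of gene length in the result was not tested.

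WDD lungs had more RNA of most Wnt genes than COPD lungs. Here 30 of the 33 genes rose, against 57.1% of all genes tested, and limma called 0 lower, with 0 at an unadjusted p under 0.05, against 6.63% of all genes. The median log2 fold change was 1.10 over the Wnt genes and 0.54 over all genes. All WDD libraries lay above all COPD libraries for 27 of the genes and for 40.6% of all genes. After scaling, 20 Wnt genes were higher in WDD, where 23.3% of all genes were, with medians of 0.66 and 0.03. Again 0 were lower by limma, and 0 at an unadjusted p under 0.05, where 21.4% of all genes were. The 2 comparisons share the COPD libraries, so a value that is low in COPD enters both, and WDD against control shares libraries with each of them.

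WDD lungs stayed below control lungs for 19 Wnt genes, where 31% of all genes were lower, and limma called 0 higher, where 6.35% of all genes were, with 1 at an unadjusted p under 0.05. The medians were -0.58 over the Wnt genes and -0.23 over all genes. All WDD libraries lay below all control libraries for 21 of the genes and for 31.4% of all genes. After scaling 12 were lower, where 16.9% of all genes were, and 0 were higher by limma, with 1 at an unadjusted p under 0.05, where 15.9% of all genes were. Of the 30 genes lower in COPD than in control and higher in WDD than in COPD, 17 were also lower in WDD than in control. The other 13 (Dkk3, Fzd2, Lef1, Nkd1, Porcn, Rspo1, Tcf7l1, Tcf7l2, Wif1, Wnt11, Wnt3a, Wnt5a and Wnt5b) did not pass that test, which does not show that they were back at the control level. Fzd5 and Wnt2 were lower in COPD and did not pass the test of WDD against COPD. Among all genes 66.4% were lower in COPD than in control and 57.1% higher in WDD than in COPD. The share of all genes with both changes was not counted, so the joint count of Wnt genes only describes them.

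Some values rest on the libraries that stand apart. Without COPD 1 and COPD 5 limma called 32 Wnt genes lower and 1 higher in COPD against control, 29 higher in WDD against COPD, and 25 lower and 1 higher in WDD against control. The rise in WDD against COPD was then 0.64 for Fzd1, 0.69 for Porcn, 0.46 for Tcf7l1 and 0.69 for Wnt5a, against 1.08, 1.09, 0.95 and 1.10 with all libraries, and Wnt9a did not pass. Tcf7l1 in COPD against control was -0.72, against -1.22 with them. Without WDD 4 and WDD 5 the counts were 28 higher and 1, Sfrp2, lower in WDD against COPD, and 14 lower in WDD against control. The shares of all genes in these fits are not given here. Whether the Wnt counts moved with the rest of the transcriptome therefore cannot be read from them.

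Quantile normalisation, which gives all libraries the same distribution of values, called 23 Wnt genes lower and 1 higher in COPD against control, where 29.6% and 28.4% of all genes were. With it 20 were higher and 1, Wnt2, was lower in WDD against COPD, where 22.1% and 18.7% of all genes were. It called 12 lower and 1, Sfrp2, higher in WDD against control, where 18.3% and 17.4% of all genes were.

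**Figure D1:**
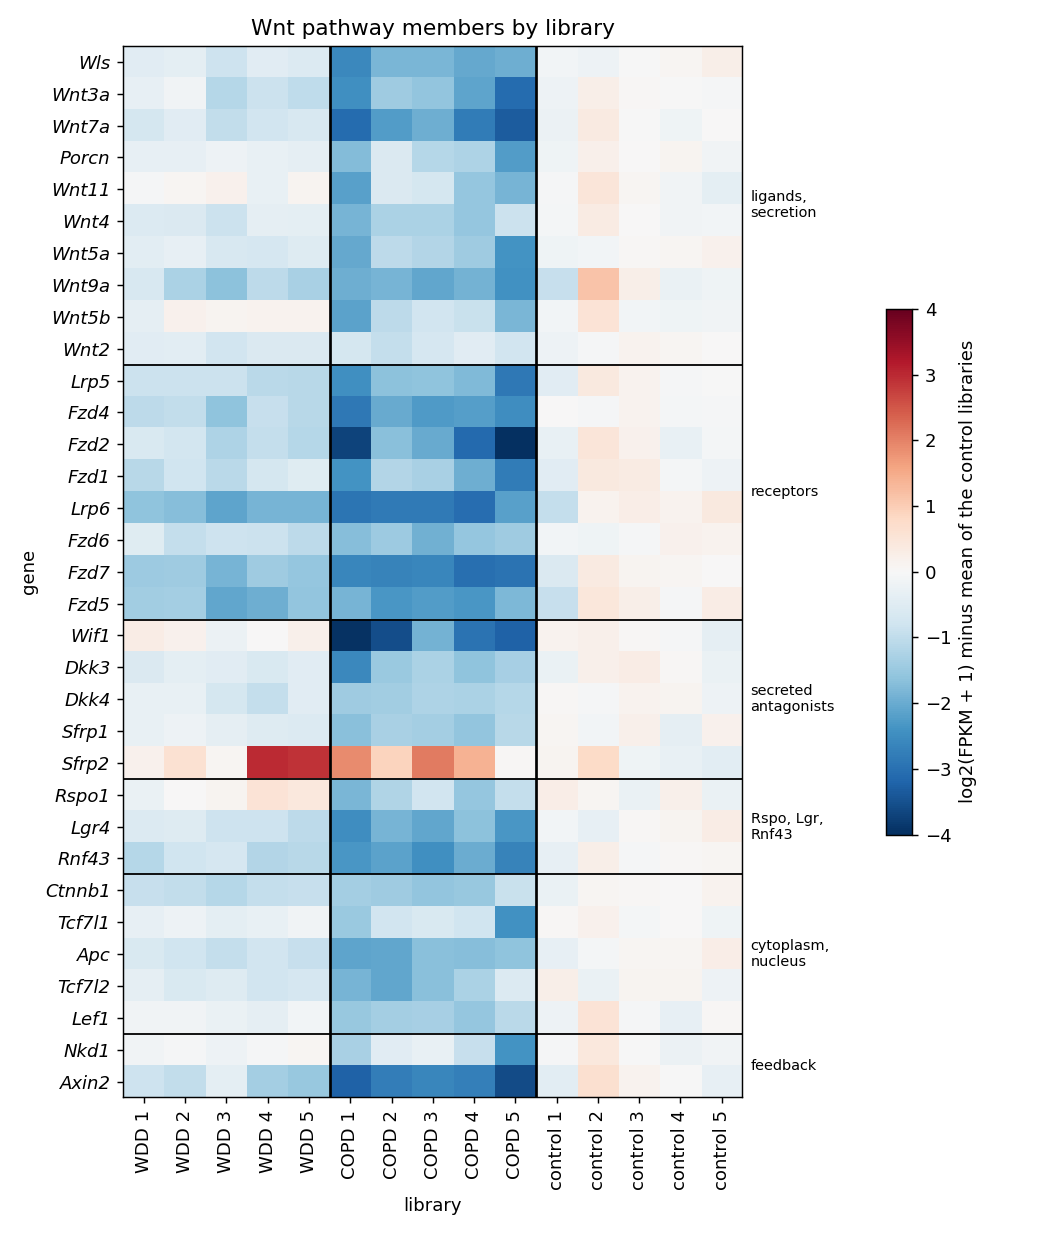
Log2(FPKM + 1) of the 33 Wnt genes (rows, grouped by role) in each of the 15 libraries (columns, WDD, COPD and control from left to right), minus the mean of the 5 control libraries. COPD libraries are lower (blue) in all rows but Sfrp2, and WDD libraries lie between COPD and control for 29 of the 33 genes by their means.

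**Figure D2:**
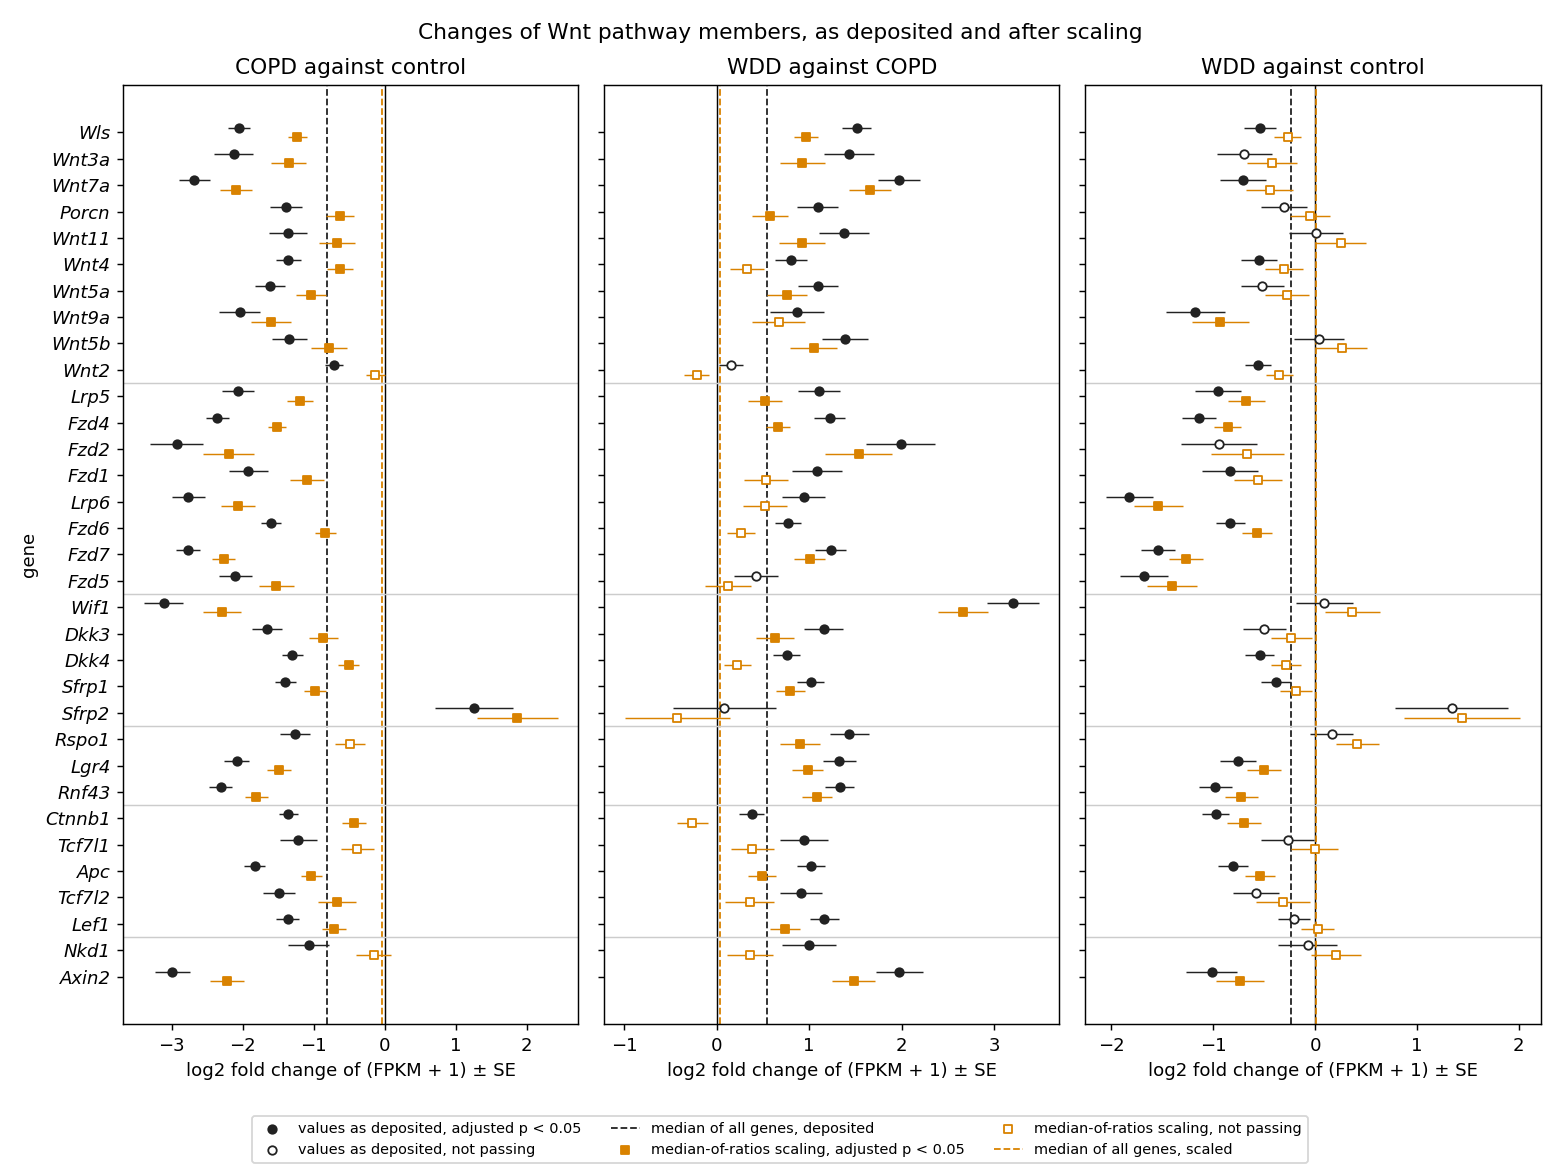
Log2 fold change of FPKM + 1 with its SE for each Wnt gene (rows) in COPD against control, WDD against COPD and WDD against control, as deposited (circles) and after median-of-ratios scaling (squares), filled where the adjusted p from limma is under 0.05. Dashed lines mark the median of all genes tested, which scaling moves close to 0.

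Of the 21 ligand and secretion genes in the table, 10 were among the 33 genes. All 10 fell in COPD against control (66.4% of all genes) and 9 rose in WDD against COPD (57.1%). In WDD against control 5 stayed lower (31%). After scaling the counts were 9, 7 and 1, against 32.3%, 23.3% and 16.9% of all genes. The summed FPKM of the 8 Wnt ligands averaged 39 ± 5.15 in WDD, 12.8 ± 5.66 in COPD and 59.2 ± 11.1 in control libraries (SD, n = 5 each).

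Wls (ENSRNOG00000036816), the carrier that brings Wnt proteins to the cell surface, had the highest mean of this class, with an FPKM of 14.6, 15.2, 11, 14.5 and 13.6 in WDD 1 to 5, 2.54, 4.99, 5.03, 4.2 and 4.47 in COPD 1 to 5, and 18.7, 17.7, 20.3, 21.7 and 24.1 in control 1 to 5. The 3 groups did not overlap, with COPD lowest and control highest. Its log2 fold change was -2.05 ± 0.16 (adjusted p = 1.53e-08) in COPD against control and 1.51 ± 0.16 (adjusted p = 1.27e-06) in WDD against COPD by limma, and -1.23 and 0.96 after scaling. WDD against control gave -0.54 ± 0.16 (adjusted p = 0.0123), a call lost after scaling and without WDD 4 and WDD 5 (-0.56, adjusted p = 0.0517). Porcn, the enzyme that attaches the lipid to Wnt proteins, had a mean FPKM of 8.19 ± 0.365 in WDD, 3.64 ± 1.95 in COPD and 10.4 ± 1.33 in control libraries.

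Wnt7a (ENSRNOG00000048782), a ligand that in mouse is needed, with Wnt7b, for brain vessel growth and, alone, for reproductive tract patterning, had an FPKM of 6.1, 7.58, 4.89, 5.82 and 6.51 in WDD 1 to 5, 0.384, 1.47, 1.99, 0.683 and 0.161 in COPD 1 to 5, and 9.0, 14, 10.6, 9.46 and 10.8 in control 1 to 5. Every COPD value lay under 2 FPKM and every WDD value under every control value. The log2 fold change was -2.68 ± 0.22 (adjusted p = 3.57e-08) in COPD against control and 1.97 ± 0.22 (adjusted p = 3.26e-06) in WDD against COPD, or -2.10 and 1.65 after scaling, both passing by limma. In WDD against control it was -0.71 ± 0.22 (adjusted p = 0.02), a call lost after scaling, without WDD 3 (-0.64, adjusted p = 0.0528), without control 2 (-0.62, adjusted p = 0.0547) and without WDD 4 and WDD 5 together (-0.71, adjusted p = 0.0783).

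Wnt9a (ENSRNOG00000003066) was at the edge of detection outside control libraries, with an FPKM of 2.47, 1.22, 0.734, 1.59 and 1.17 in WDD 1 to 5, 0.398, 0.467, 0.257, 0.441 and 0 in COPD 1 to 5, and 1.8, 10.7, 5.27, 3.49 and 3.76 in control 1 to 5. It met the minimum through the control and some WDD libraries only, so its lower level in COPD follows in part from how it was kept. WDD 1 was above control 1 and the other WDD values were below all control values. For Wnt9a the log2 fold change was -2.04 ± 0.29 (adjusted p = 8.77e-06) in COPD against control and 0.87 ± 0.29 (adjusted p = 0.0159) in WDD against COPD, which did not pass after scaling. In WDD against control it was -1.18 ± 0.29 (adjusted p = 0.00463), the largest fall among the ligands, and -0.93 (adjusted p = 0.0203) after scaling.

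Wnt3a, a canonical ligand, was the most abundant Wnt in control libraries, with a mean FPKM of 10.5 in WDD, 3.43 in COPD and 16.9 in control libraries. Next came Wnt7a, and then Wnt11, which acts mostly in the planar polarity branch, at 7.2 in WDD, 2.45 in COPD and 7.25 in control libraries, and Wnt4, a ligand of kidney and gonad development, at 4.58 in WDD, 2.26 in COPD and 7.19 in control libraries. Wnt5a, the best known non-canonical ligand, had 3.38 in WDD, 1.17 in COPD and 5.27 in control libraries, and its relative Wnt5b 4.47 in WDD, 1.21 in COPD and 4.36 in control libraries. Wnt2, which in mouse acts with Wnt2b to specify the lung, was lower still at 1.32 in WDD, 1.09 in COPD and 2.41 in control libraries. In control libraries Wnt11, Wnt4 and Wnt5a ranged over 5.16 to 10.3, 6.31 to 9.16 and 4.58 to 5.96 FPKM, so that Wnt11 overlapped with both others. Wnt11 and Wnt5b were the ligands nearest to the control level in WDD, with log2 fold changes of 0.01 ± 0.27 (adjusted p = 0.979) and 0.04 ± 0.24 (adjusted p = 0.914), neither passing by limma. Wnt2 moved least in COPD against control, at -0.71 ± 0.13 (adjusted p = 0.000103), which is 0.10 relative to the median of all genes, and -0.14 (adjusted p = 0.39) after scaling.

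Most receptors stayed below the control level in WDD lungs. All 8 measured Frizzled and Lrp receptors fell in COPD (66.4% of all genes) and 7 rose in WDD against COPD (57.1%). In WDD against control 7 were still lower (31%). After scaling the counts were 8, 4 and 6, against 32.3%, 23.3% and 16.9% of all genes. Summed FPKM of the 6 Frizzled receptors averaged 47 ± 5.95 in WDD, 17.6 ± 6.92 in COPD and 103 ± 15.8 in control libraries, and the sums ran over 36.6 to 51 in WDD, 11.4 to 27.1 in COPD and 83.6 to 123 in control libraries without overlap.

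Lrp6 (ENSRNOG00000006338), a co-receptor of the canonical branch, had an FPKM of 4.07, 3.69, 2.56, 3.22 and 3.24 in WDD 1 to 5, 1.0, 1.15, 1.17, 0.859 and 2.37 in COPD 1 to 5, and 6.99, 15.8, 17.4, 15.8 and 19.3 in control 1 to 5. All WDD values were above all COPD values and below all control values, and control 1 was far below the other control libraries. It had a log2 fold change of -2.76 ± 0.23 (adjusted p = 3.31e-08) in COPD against control, 0.94 ± 0.23 (adjusted p = 0.00214) in WDD against COPD and -1.82 ± 0.23 (adjusted p = 4.73e-05) in WDD against control by limma. After scaling these were -2.06, 0.52 and -1.54, of which the second did not pass. Relative to the median of all genes on the log2(FPKM + 1) scale, the fall in WDD against control was -1.59, the largest of the 33 genes. That scale understates the falls of low genes. Mean FPKM was 1.13 in WDD and 6.04 in control libraries for Fzd5, against 3.36 and 15.1 for Lrp6. Lrp5 (ENSRNOG00000015911), its close relative and the receptor of highest mean, had an FPKM of 19, 19, 19.3, 16.4 and 15.8 in WDD 1 to 5, 5.64, 10.8, 11.1, 9.77 and 4.0 in COPD 1 to 5, and 25.6, 46.5, 39.1, 34.2 and 35.3 in control 1 to 5. The groups did not overlap, and control 1 was again the lowest control library. The log2 fold change of Lrp5 was -2.06 ± 0.23 (adjusted p = 5.55e-07) in COPD against control, 1.11 ± 0.23 (adjusted p = 0.00054) in WDD against COPD and -0.95 ± 0.23 (adjusted p = 0.0035) in WDD against control. Without COPD 1 and COPD 5 the second value was 0.71. After scaling the values of Lrp5 were -1.20, 0.52 (adjusted p = 0.0297) and -0.68, all passing by limma. With scaling and without COPD 1 and COPD 5 the rise in WDD against COPD was 0.25 (adjusted p = 0.156), which did not pass.

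Fzd4 (ENSRNOG00000016848), the receptor that also reads norrin in vessels, was the most abundant Frizzled in control libraries, with an FPKM of 13.6, 14.1, 8.73, 14.7 and 13 in WDD 1 to 5, 3.15, 6.42, 5.28, 5.53 and 4.38 in COPD 1 to 5, and 29.5, 28, 31.9, 27.2 and 28.2 in control 1 to 5. Control libraries lay within a narrow band, and the highest WDD value was below 15 FPKM. The log2 fold change was -2.36 ± 0.17 (adjusted p = 7.32e-09) in COPD against control, 1.22 ± 0.17 (adjusted p = 1.56e-05) in WDD against COPD and -1.14 ± 0.17 (adjusted p = 0.000105) in WDD against control, and all 3 passed by limma after scaling, at -1.52, 0.66 and -0.86. Fzd7 (ENSRNOG00000016119), which carries canonical signals in several progenitor cells, had an FPKM of 2.24, 2.34, 1.48, 2.32 and 2.06 in WDD 1 to 5, 0.458, 0.404, 0.472, 0.0953 and 0.154 in COPD 1 to 5, and 5.0, 10.3, 8.66, 8.44 and 8.09 in control 1 to 5. No COPD library reached 1 FPKM, and the groups did not overlap. Its log2 fold change was -2.77 ± 0.17 (adjusted p = 2.68e-09) in COPD against control, 1.23 ± 0.17 (adjusted p = 1.72e-05) in WDD against COPD and -1.54 ± 0.17 (adjusted p = 2.44e-05) in WDD against control.

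Fzd5 (ENSRNOG00000014678), a receptor of canonical Wnt ligands in epithelia, had an FPKM of 1.54, 1.59, 0.588, 0.725 and 1.22 in WDD 1 to 5, 0.862, 0.331, 0.437, 0.333 and 0.944 in COPD 1 to 5, and 2.55, 8.16, 6.92, 5.42 and 7.15 in control 1 to 5. The WDD and COPD values overlapped, and every WDD value was below every control value. Fzd5 passed the minimum through control and WDD libraries, none of the COPD libraries reaching 1 FPKM. It had a log2 fold change of -2.10 ± 0.24 (adjusted p = 7.23e-07) in COPD against control, 0.42 ± 0.24 (adjusted p = 0.127) in WDD against COPD and -1.68 ± 0.24 (adjusted p = 8.34e-05) in WDD against control by limma, with the last at -1.41 after scaling. Without control 1 the WDD against COPD value passed, at 0.42 (adjusted p = 0.0475).

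Fzd2 (ENSRNOG00000021962), a receptor for Wnt5a, was the only measured receptor that missed the threshold in WDD against control on the deposited values. It had an FPKM of 17.3, 15.8, 10.8, 13.4 and 11.6 in WDD 1 to 5, 1.14, 7.78, 5.94, 2.2 and 0.569 in COPD 1 to 5, and 21.7, 38.2, 30.8, 21.8 and 25.3 in control 1 to 5. COPD 1, COPD 4 and COPD 5 were under 3 FPKM, COPD 2 and COPD 3 higher, and all COPD values were below all WDD values. For Fzd2 the log2 fold change was -2.93 ± 0.37 (adjusted p = 2.70e-06) in COPD against control and 1.99 ± 0.37 (adjusted p = 0.000266) in WDD against COPD, and 1.33 without COPD 1 and COPD 5. In WDD against control it was -0.94 ± 0.37 (adjusted p = 0.0577), which did not pass, although each WDD value was below each control value. It passed when any of COPD 1, COPD 2, COPD 3 or COPD 5 was left out, with adjusted p-values from 0.0188 to 0.0494. Leaving out these libraries changed the pooled spread and left the value at -0.94. By limma it did not pass after median-of-ratios scaling (-0.66, adjusted p = 0.174) or without WDD 4 and WDD 5 (-0.86, adjusted p = 0.192). Fzd1 and Fzd6 had a mean FPKM of 12 in WDD, 5.6 in COPD and 22.5 in control libraries, and of 5.2 in WDD, 2.63 in COPD and 10.01 in control libraries. The call of Fzd1 in WDD against control (-0.84 ± 0.27, adjusted p = 0.0235) was lost after scaling (-0.56, adjusted p = 0.0841) and without WDD 1, WDD 3, control 2 or control 3, and its call in WDD against COPD was lost after scaling (0.53, adjusted p = 0.0807).

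**Figure D3:**
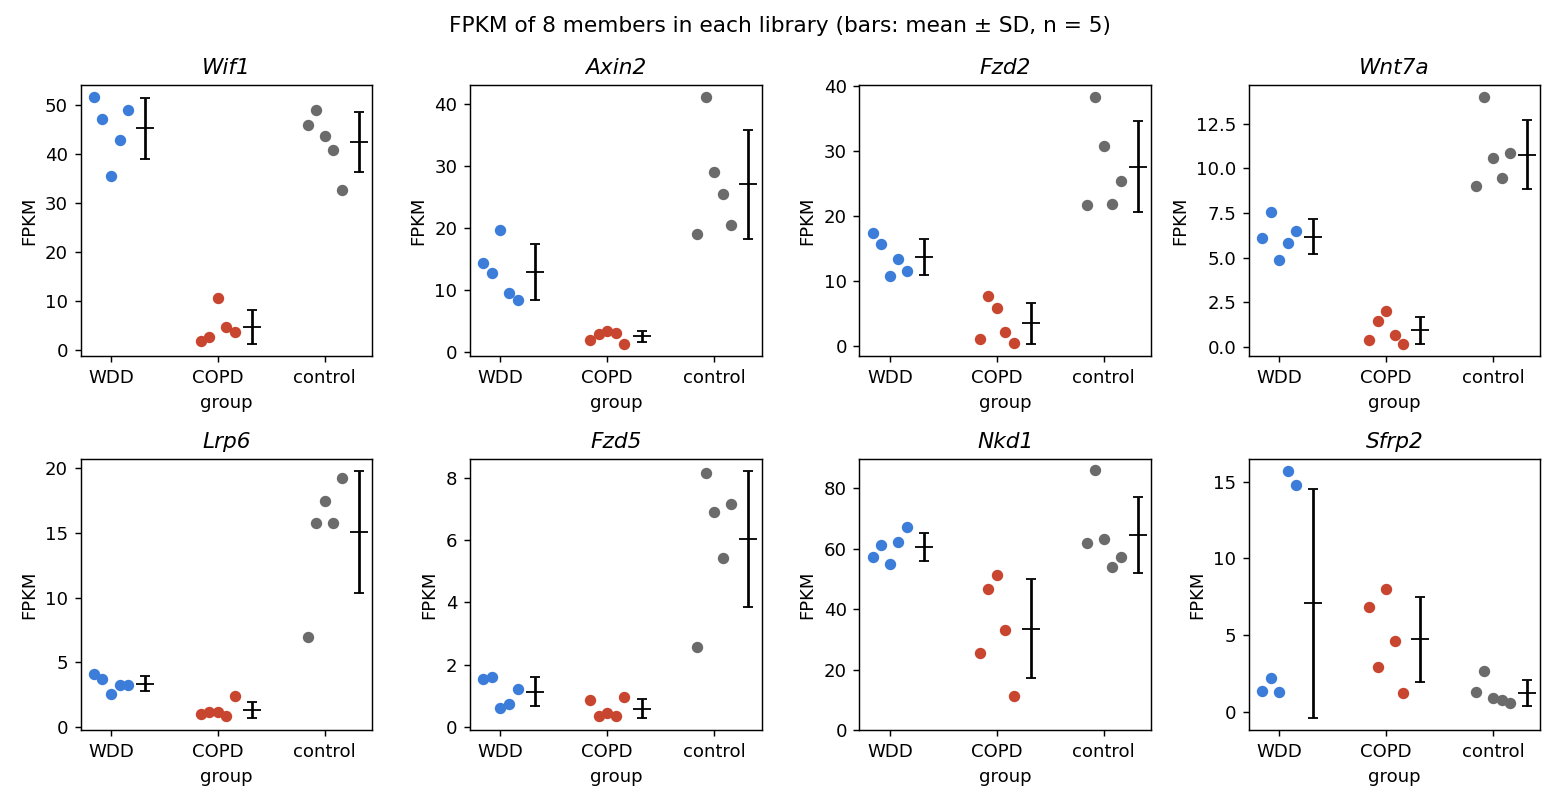
FPKM of 8 Wnt genes in each library (points, 5 per group, WDD, COPD and control from left to right) with the mean and SD beside them. Wif1 is high in WDD and control and low in COPD, Lrp6 and Fzd5 are high in control libraries alone, and Sfrp2 is high in WDD 4 and WDD 5 and in most COPD libraries.

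Among the secreted antagonists, 4 of 5 fell in COPD against control (66.4% of all genes) and Sfrp2 rose (8.23%). Against COPD, 4 rose in WDD (57.1%), and 2 were lower in WDD than in control (31%). After scaling 4 were lower (32.3%) and 1 was higher (30.2%) in COPD against control. On that scale 3 were higher in WDD against COPD (23.3%) and 0 of the 5 changed in WDD against control (16.9% of all genes lower). Their summed FPKM averaged 69.8 ± 10.1 in WDD, 16.9 ± 6.14 in COPD and 69.7 ± 8.81 in control libraries.

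Wif1 (ENSRNOG00000004476) is a secreted protein that binds Wnt ligands and keeps them from their receptors. On the log2(FPKM + 1) scale it had the largest change of the 33 genes in COPD against control and in WDD against COPD. It had an FPKM of 51.7, 47.2, 35.5, 42.9 and 49.1 in WDD 1 to 5, 1.76, 2.7, 10.7, 4.55 and 3.62 in COPD 1 to 5, and 46.1, 49, 43.7, 40.9 and 32.8 in control 1 to 5. COPD libraries were all below 11 FPKM, while WDD and control libraries overlapped and were all above 32. The means were 45.3 ± 6.34 in WDD, 4.66 ± 3.52 in COPD and 42.5 ± 6.21 in control libraries (SD, n = 5 each). The log2 fold change was -3.11 ± 0.28 (adjusted p = 6.73e-08) in COPD against control, or -2.30 relative to the median of all genes, and 3.20 ± 0.28 (adjusted p = 2.55e-07) in WDD against COPD, or 2.66 relative to it. After scaling the 2 values were -2.29 and 2.66, both passing by limma. WDD against control gave 0.09 ± 0.28 (adjusted p = 0.83), which did not pass. Adding 1 to each FPKM understates the changes of low genes. One such gene, Fzd7, had a mean FPKM of 8.11 in control and 0.317 in COPD libraries.

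Sfrp2 (ENSRNOG00000009465), a secreted protein with a Frizzled-like domain that is typical of fibroblasts, ran against the other Wnt genes, with an FPKM of 1.38, 2.22, 1.27, 15.7 and 14.8 in WDD 1 to 5, 6.82, 2.92, 8.02, 4.63 and 1.21 in COPD 1 to 5, and 1.3, 2.66, 0.878, 0.74 and 0.594 in control 1 to 5. WDD 4 and WDD 5, the 2 libraries most alike, were the highest of all 15, and the other WDD libraries were at the control level. COPD 5 lay below control 1 and control 2, so the COPD and control groups overlapped. The log2 fold change in COPD against control was 1.26 ± 0.55 (adjusted p = 0.0492), and 1.87 (adjusted p = 0.00928) after scaling. That call was lost on the deposited values without COPD 1, COPD 2, COPD 3, COPD 4, WDD 2, control 1, control 3, control 4 or control 5, with the value between 1.05 and 1.35. WDD against COPD gave 0.08 ± 0.55 (adjusted p = 0.902), and without WDD 4 and WDD 5 it turned to -0.98 (adjusted p = 0.047). In WDD against control it was 1.34 ± 0.55 (adjusted p = 0.0675), which did not pass. It passed without WDD 1 (1.64, adjusted p = 0.0336), without WDD 3 (1.65, adjusted p = 0.0332) and without COPD 5 (1.34, adjusted p = 0.0428), and was 0.28 (adjusted p = 0.655) without WDD 4 and WDD 5. Fibroblast markers summed to 383 to 525 in WDD, 286 to 512 in COPD and 437 to 551 in control libraries. Of the 11 tested 1 rose and 6 fell in COPD against control, where 8.23% and 66.4% of all genes did. After scaling 4 rose and 2 fell, where 30.2% and 32.3% of all genes did.

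Dkk3, a divergent member of the Dickkopf family, had a mean FPKM of 9.29 in WDD, 3.83 in COPD and 13.7 in control libraries. Dkk4, which binds Lrp6 and blocks it, had 6.47 in WDD, 3.37 in COPD and 9.78 in control libraries, and Sfrp1 1.69 in WDD, 0.341 in COPD and 2.55 in control libraries. Their log2 fold changes in COPD against control were -1.65 ± 0.21, -1.30 ± 0.14 and -1.40 ± 0.15, all passing by limma. Sfrp1 in WDD against control was at the threshold (-0.39 ± 0.15, adjusted p = 0.0485), and its call was lost when any of WDD 1, WDD 3, WDD 4, WDD 5, COPD 2, COPD 3, COPD 4, control 1, control 2, control 3 or control 5 was left out.

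Rspo1 (ENSRNOG00000009656), a secreted protein that strengthens Wnt signals by removing Rnf43 and Znrf3 from the cell surface, had an FPKM of 7.84, 9.79, 10.6, 14.5 and 13.4 in WDD 1 to 5, 1.99, 3.67, 5.23, 2.63 and 4.47 in COPD 1 to 5, and 11.7, 10.3, 7.91, 11.2 and 7.87 in control 1 to 5. All COPD values were below all others, and the WDD and control values overlapped. Its log2 fold change was -1.27 ± 0.21 (adjusted p = 4.37e-05) in COPD against control, which did not pass after scaling, and 1.43 ± 0.21 (adjusted p = 3.24e-05) in WDD against COPD, which was 0.90 (adjusted p = 0.00288) after scaling. WDD against control gave 0.16 ± 0.21 (adjusted p = 0.576), which did not pass. Lgr4, the R-spondin receptor, had a mean FPKM of 3.7 in WDD, 0.899 in COPD and 6.94 in control libraries. Rnf43, the ligase that removes Frizzled receptors from the surface, had 2.54 in WDD, 0.415 in COPD and 5.96 in control libraries. Both passed in all 3 comparisons, as deposited and after scaling, with WDD between COPD and control: for Rnf43 the log2 fold change was -2.31 ± 0.16 in COPD against control, 1.33 ± 0.16 in WDD against COPD and -0.98 ± 0.16 in WDD against control.

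Inside the cell, all 5 measured components fell in COPD (66.4% of all genes) and rose in WDD against COPD (57.1%). Ctnnb1 and Apc were still lower in WDD than in control (31%). After scaling 4 fell (32.3%), 2 rose (23.3%) and Ctnnb1 and Apc were again lower in WDD than in control (16.9%). Ctnnb1 (ENSRNOG00000054172), the messenger of the canonical branch, was the most abundant of the 33 genes, with an FPKM of 79.7, 75, 68.3, 77.7 and 79.3 in WDD 1 to 5, 57.8, 55.9, 49.4, 51.6 and 79.9 in COPD 1 to 5, and 126, 158, 155, 151 and 165 in control 1 to 5. COPD 5 was the highest of all COPD and WDD libraries, and the WDD and COPD groups overlapped through it alone. It had a log2 fold change of -1.36 ± 0.14 (adjusted p = 2.09e-07) in COPD against control and -0.98 ± 0.14 (adjusted p = 7.63e-05) in WDD against control. In WDD against COPD it was 0.38 ± 0.14 (adjusted p = 0.0216), less than the median of all genes by 0.16, and after scaling it turned to -0.26 (adjusted p = 0.217). That call was lost without COPD 3 (0.32, adjusted p = 0.0562), without COPD 4 (0.34, adjusted p = 0.0512) and without WDD 4 and WDD 5 together (0.35, adjusted p = 0.0965).

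Apc, the scaffold that helps destroy beta-catenin, had a mean FPKM of 7.47 in WDD, 3.2 in COPD and 13.9 in control libraries. Tcf7l1, mostly a repressor of Wnt targets, had 12.8 in WDD, 6.82 in COPD and 15.6 in control libraries, Tcf7l2 had 8.92 in WDD, 4.68 in COPD and 13.9 in control libraries and Lef1 4.14 in WDD, 1.31 in COPD and 5.05 in control libraries. Lef1 and Tcf7, its relative outside the 33 genes, are also T cell genes. The T cell markers, a list that includes Tcf7 itself, summed to 203 to 286 in WDD, 32 to 86.5 in COPD and 212 to 291 in control libraries. Of the 16 tested, 15 fell in COPD against control (66.4% of all genes) and 15 rose in WDD against COPD (57.1%). The Lef1 values were -1.37 ± 0.16 in COPD against control and 1.16 ± 0.16 in WDD against COPD. The part of the T cell markers in them was not tested.

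Both feedback inhibitors fell in COPD against control (66.4% of all genes) and rose in WDD against COPD (57.1%) on the deposited values. After scaling Axin2 alone did so, where 32.3% of all genes fell and 23.3% rose. Axin2 (ENSRNOG00000055010), the scaffold protein used in mouse lung as the standard readout of canonical signalling, had an FPKM of 14.3, 12.7, 19.8, 9.46 and 8.41 in WDD 1 to 5, 1.86, 2.96, 3.45, 3.05 and 1.25 in COPD 1 to 5, and 19.1, 41.1, 29.1, 25.6 and 20.5 in control 1 to 5. COPD values were all under 4 FPKM, and WDD 3 lay above control 1 while the other WDD libraries were below all controls. For Axin2 the log2 fold change was -2.99 ± 0.25 (adjusted p = 3.87e-08) in COPD against control, or -2.17 relative to the median of all genes, and 1.97 ± 0.25 (adjusted p = 9.20e-06) in WDD against COPD. After scaling these were -2.22 and 1.48, both passing by limma. In WDD against control it was -1.02 ± 0.25 (adjusted p = 0.0048), and -0.73 (adjusted p = 0.068) without WDD 4 and WDD 5.

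Nkd1 (ENSRNOG00000014293), which binds Dishevelled and is another target of the canonical branch, had an FPKM of 57.2, 61.1, 54.9, 62.2 and 67.2 in WDD 1 to 5, 25.5, 46.7, 51.4, 33.1 and 11.3 in COPD 1 to 5, and 62, 85.9, 63.3, 53.8 and 57.3 in control 1 to 5. COPD 5 and COPD 1 were lowest and COPD 2 and COPD 3 near the WDD values, without overlap between WDD and COPD. Its log2 fold change was -1.07 ± 0.29 (adjusted p = 0.00323) in COPD against control and 0.99 ± 0.29 (adjusted p = 0.0071) in WDD against COPD. Without COPD 1 and COPD 5 these were -0.55 (adjusted p = 0.00488) and 0.48 (adjusted p = 0.0156). After scaling they were -0.16 (adjusted p = 0.599) and 0.36 (adjusted p = 0.248), neither of which passed by limma. Promoters of both genes held the TCF and LEF letters printed above, 2 matches in Axin2 and 1 in Nkd1.

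Shares within a class do not depend on how a library is scaled, and are given as a description. Wif1 made up 65.1 ± 5.74% in WDD, 25.1 ± 9.35% in COPD and 60.8 ± 2.65% in control libraries of the summed FPKM of the 5 antagonists (SD, n = 5 each), with ranges of 58.6 to 72.5% in WDD, 13.4 to 38.7% in COPD and 58.2 to 64.6% in control libraries. Sfrp2 made up 9.41 ± 9.54% in WDD, 27.9 ± 15.7% in COPD and 1.71 ± 0.983% in control libraries. In COPD libraries the rest of the antagonist FPKM was mostly Dkk3 at 23.4% and Dkk4 at 21.4%. Among the ligands Wnt7a held 15.8 ± 1.05% in WDD, 6.35 ± 3.2% in COPD and 18.2 ± 0.936% in control libraries, without overlap between COPD and either other group, and Wnt2 3.36 ± 0.203% in WDD, 10.1 ± 4.91% in COPD and 4.15 ± 0.742% in control libraries. Wnt4 held 45.6% of the ligand FPKM in COPD 5 and 12.7 to 18.3% in the other COPD libraries.

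Among the Frizzled receptors Fzd7 held 4.42 ± 0.263% in WDD, 1.92 ± 1.3% in COPD and 7.79 ± 1.13% in control libraries, with no overlap between control and either other group. Fzd4, the most abundant of them in control libraries, held 27.1 ± 2.18% in WDD, 29.6 ± 6.62% in COPD and 28.6 ± 4.46% in control libraries. Fzd2 held 4.96 to 28.7% in COPD libraries, lowest in COPD 5, against 24.4 to 34.0% in WDD and 22.9 to 31.1% in control libraries. Lrp6 held 15.8 ± 2.35% in WDD, 15.9 ± 12.2% in COPD and 28.9 ± 5.49% in control libraries of the FPKM of Lrp5 and Lrp6 together, with 37.2% in COPD 5 and 15.1% or less in the other COPD libraries. Set against Ctnnb1 in the same library, Axin2 had 17.3 ± 7.19% in WDD, 4.6 ± 2.18% in COPD and 17.9 ± 5.11% in control libraries of its FPKM and Wif1 59.4 ± 5.49% in WDD, 8.58 ± 7.61% in COPD and 28.5 ± 6.06% in control libraries. For Axin2 the WDD and control ranges overlapped and both lay above COPD, while for Wif1 all WDD libraries were above all control libraries. Nkd1 had 79.7 ± 4.79% in WDD, 62 ± 34.8% in COPD and 42.9 ± 8.54% in control libraries. Ctnnb1 itself averaged 76 FPKM in WDD, 58.9 in COPD and 151 in control libraries. Its own change is therefore part of these ratios, which do not show a level of Axin2, Wif1 or Nkd1 against control.

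**Figure D4:**
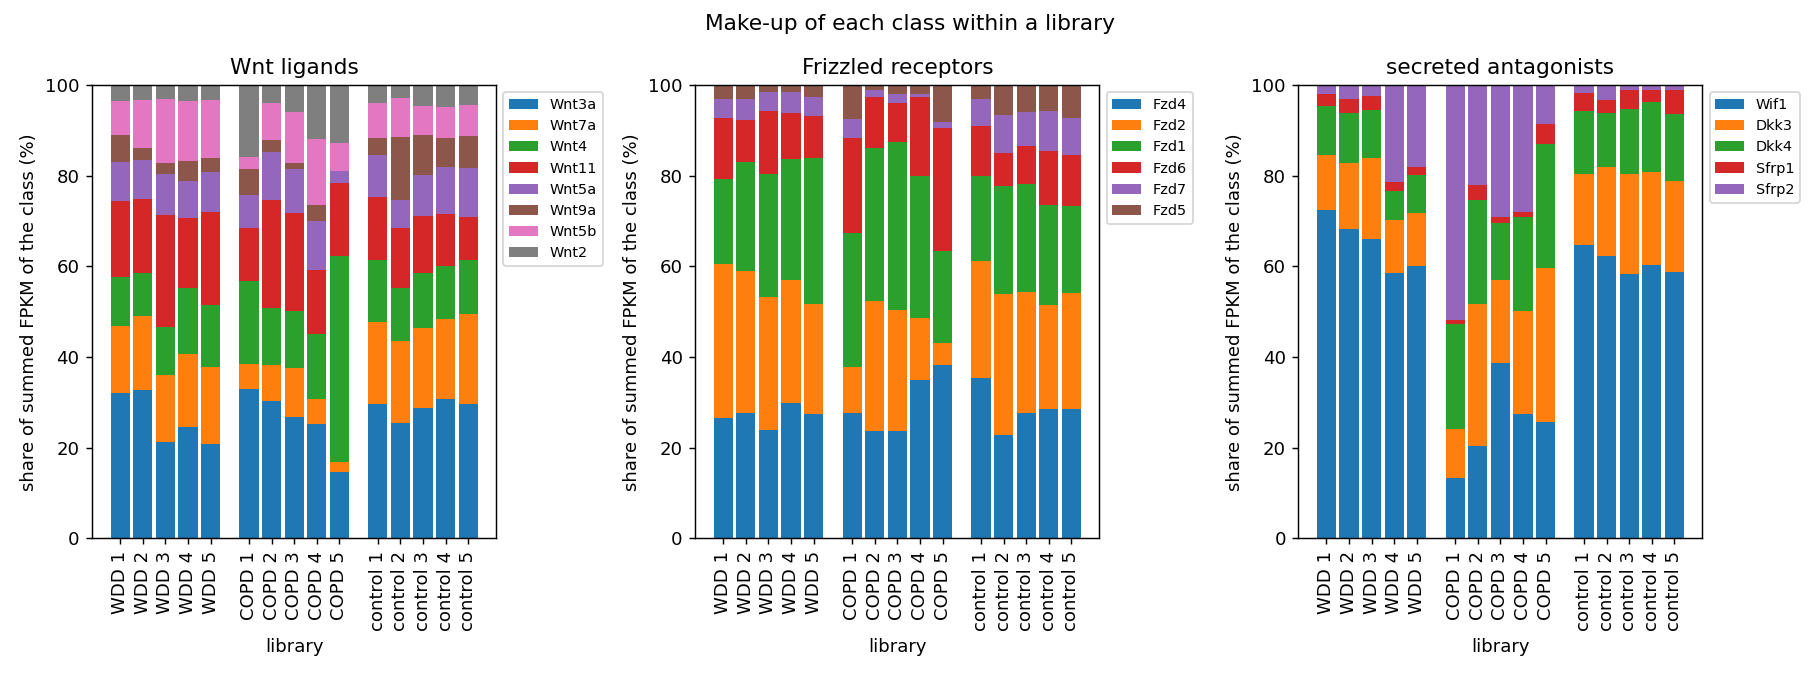
Share in percent of the summed FPKM of a class held by each of its genes, per library (bars, WDD, COPD and control from left to right), for Wnt ligands, Frizzled receptors and secreted antagonists. Wif1 takes 58.6% or more of the antagonists in WDD libraries and 58.2% or more in control libraries, and 38.7% or less in COPD libraries. Sfrp2 takes 1.94 to 21.4% in WDD, 8.59 to 51.9% in COPD and 1.06 to 3.37% in control libraries.

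Of the 33 genes, 19 reached 1 FPKM in all 15 libraries, 31 in all 5 WDD, 20 in all 5 COPD and 32 in all 5 control libraries. Fzd5, Fzd7, Rnf43, Sfrp1 and Wnt9a reached it in no COPD library. A gene kept only through the groups in which it is high is more likely to differ. With the control libraries left out, 2 of the 33 genes would have missed the minimum. The counts above therefore describe the 33 genes and lend no support to a direction. Just inside the minimum were Fzd5, at 1 FPKM in 8 libraries, and Wnt9a, in 9. Just outside it were Wnt2b, in 4 libraries, with a mean FPKM of 0.458 in WDD, 0.183 in COPD and 1.18 in control libraries, and Lgr6, in 4, with 0.571 in WDD, 0.236 in COPD and 1.86 in control libraries. Of the other 19 names, none of which reached 1 FPKM in more than 2 libraries, Dkk1, Fzd8 and Wnt16 were listed at 0 in every library and the group means of Fzd3, Fzd9, Lgr5, Rspo3, Wnt1, Wnt10a, Wnt10b, Wnt3, Wnt6, Wnt7b, Wnt8a, Wnt8b, Wnt9b, Dkk2, Sfrp4 and Sfrp5 did not exceed 1.16 FPKM. Fau, a ribosomal gene that every cell uses, was also close to 0 in these files, so a listing at 0 does not show that a gene is silent.

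Other genes of the pathway were counted by list, beside the shares of all genes tested. From a list of 21 extracellular genes 13 were tested, of which 10 fell in COPD against control (66.4% of all genes), 11 rose in WDD against COPD (57.1%) and 5 were lower in WDD than in control (31%). After scaling 10 fell and 2 rose in COPD, where 32.3% and 30.2% of all genes did, 10 rose in WDD against COPD (23.3%) and 3 were lower in WDD than in control (16.9%). Reck and Adgra2, which in mouse brain vessels act together as co-receptors for Wnt7a and Wnt7b, had a mean FPKM of 14.3 ± 0.86 in WDD, 2.13 ± 1.15 in COPD and 26.3 ± 5.81 in control libraries and of 11.1 ± 3.02 in WDD, 1.79 ± 0.994 in COPD and 33.4 ± 9.95 in control libraries. Their log2 fold changes in COPD against control were -3.19 ± 0.23 (adjusted p = 1.08e-08, -2.45 after scaling) and -3.65 ± 0.25 (adjusted p = 6.58e-09, -2.92 after scaling). In WDD against COPD they were 2.38 ± 0.23 (adjusted p = 7.91e-07, 1.92 after scaling) and 2.15 ± 0.25 (adjusted p = 4.19e-06, 1.70 after scaling). Sdc1, a heparan sulfate proteoglycan, had a mean FPKM of 50.4 ± 3.89 in WDD, 17.4 ± 4.98 in COPD and 102 ± 11.2 in control libraries. Kremen1, a receptor for Dickkopf proteins, was lower in WDD than in control at -0.73 ± 0.13 (adjusted p = 0.00044, -0.47 after scaling).

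Of 41 other cytoplasmic and nuclear components 37 were tested. In COPD against control 31 fell (66.4% of all genes) and 0 rose by limma, which after scaling became 17 (32.3%) and 8 (30.2%). Against COPD, 27 rose in WDD (57.1%) and 2 fell (6.63%). After scaling 10 rose (23.3%) and 7 fell (21.4%), near the shares of all genes, with a list median of -0.02. In WDD against control 26 were lower (31% of all genes) and 1 was higher, or 13 and 2 after scaling (16.9% of all genes lower). Tcf7 had a mean FPKM of 25.2 ± 7.27 in WDD, 2.96 ± 0.972 in COPD and 37.6 ± 10.5 in control libraries, with a log2 fold change of -3.28 ± 0.22 (adjusted p = 5.76e-09, -2.48 after scaling) in COPD against control and 2.73 ± 0.22 (adjusted p = 1.42e-07, 2.20 after scaling) in WDD against COPD. Tle1, a corepressor, rose by 1.84 ± 0.15 (adjusted p = 1.27e-07, 1.27 after scaling) in WDD against COPD. Bcl9l, which couples beta-catenin to its coactivators, was lower in WDD than in control by a log2 fold change of -1.49 ± 0.18 (adjusted p = 3.28e-05, -1.21 after scaling), Dvl3, a Dishevelled adaptor, by -1.13 ± 0.15 (adjusted p = 6.50e-05, -0.86 after scaling) and the acetyltransferase Ep300 by -1.49 ± 0.22 (adjusted p = 0.000114, -1.22 after scaling).

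Of 26 other known targets of the canonical branch, 19 were tested. Tcf7 is also on the list of cytoplasmic and nuclear components, and Notum on the extracellular list, so each was counted in both. In COPD against control 13 fell (66.4% of all genes) and 2 rose, a share of falls near that of all genes. After scaling 6 fell (32.3%) and 7 rose (30.2%). Against COPD, 10 rose in WDD (57.1%) and 2 fell (6.63%), a share of rises near that of all genes. After scaling 4 rose (23.3%) and 4 fell (21.4%), again near the shares of all genes. In WDD against control 2 were lower (31%), or 0 lower (16.9%) and 1 higher (15.9%) after scaling. Vcan, which encodes a matrix proteoglycan, rose in COPD by 2.50 ± 0.28 (adjusted p = 6.02e-07, 3.15 after scaling) on the log2 scale and fell in WDD against COPD at -2.87 ± 0.28 (adjusted p = 6.83e-07, -3.37 after scaling), with a mean FPKM of 0.506 ± 0.258 in WDD, 10.9 ± 5.02 in COPD and 0.951 ± 0.39 in control libraries. Notum, a secreted enzyme that strips the lipid from Wnt proteins, had a mean FPKM of 2.98 ± 0.685 in WDD, 0.35 ± 0.266 in COPD and 3.13 ± 1.08 in control libraries and a log2 fold change of 1.57 ± 0.19 (adjusted p = 7.14e-06, 1.34 after scaling) in WDD against COPD. Id2, an inhibitor of helix-loop-helix factors, had 47.1 ± 6.68 in WDD, 23.8 ± 2.02 in COPD and 64.7 ± 9.53 in control libraries.

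Of 40 genes of the planar polarity and calcium branches, 38 were tested. In COPD against control 36 fell (66.4% of all genes) and 0 rose by limma, or 21 (32.3%) and 4 (30.2%) after scaling. Against COPD, 27 rose in WDD (57.1%) and 0 fell by limma (6.63%), or 16 (23.3%) and 6 (21.4%) after scaling. In WDD against control 21 were lower (31%), or 14 lower (16.9%) and 1 higher (15.9%) after scaling. Celsr1, an atypical cadherin of planar polarity, had a mean FPKM of 1.36 ± 0.17 in WDD, 0.446 ± 0.176 in COPD and 4.84 ± 1.45 in control libraries. Vangl1, its partner at the membrane, had 3.56 ± 0.292 in WDD, 1.21 ± 0.453 in COPD and 6.83 ± 1.28 in control libraries. Ptk7, a Wnt co-receptor without kinase activity, had 11.1 ± 0.90 in WDD, 3.85 ± 1.74 in COPD and 31.8 ± 6.81 in control libraries, with a log2 fold change of -1.42 ± 0.25 (adjusted p = 0.000361, -1.14 after scaling) in WDD against control.

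Markers of other lung cell types are given beside the shares of all genes, of which 66.4% fell in COPD against control and 57.1% rose in WDD against COPD, or 32.3% and 23.3% after scaling. All 14 alveolar type 1 markers fell in COPD and rose in WDD against COPD, and 13 did in each after scaling, their sum being 3279.8 to 4627 in WDD, 698 to 1952 in COPD and 4006 to 5582 in control libraries. All 12 smooth muscle and pericyte markers fell in COPD and 10 rose in WDD, or 9 fell in COPD and 5 rose and 2 fell in WDD after scaling, with sums of 338 to 677 in WDD, 193 to 299 in COPD and 589 to 967 in control libraries. Endothelial markers summed to 1208 to 1396 in WDD, 289 to 833 in COPD and 1229 to 2046 in control libraries, with Cldn5 listed at 0, and 8 of 10 tested fell in COPD while 9 rose in WDD, or 6 fell and 1 rose in COPD and 6 rose and 1 fell in WDD after scaling. Mesothelial markers summed to 78.4 to 103 in WDD, 14.6 to 29.8 in COPD and 143 to 164 in control libraries, 4 of 5 falling in COPD and 1 rising in WDD, with the same counts after scaling. Airway markers summed to 17544 to 39212 in WDD, 2008 to 14598 in COPD and 11378 to 17594 in control libraries, with the basal cell genes Krt5 and Tp63 under 0.1 FPKM, and 4 of 6 fell in COPD and 4 rose in WDD, or 3 and 3 after scaling. The part of these markers in the Wnt values was not tested.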

How the data were processed

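Total RNA was extracted with TRIzol, and 1 ug of it went into libraries made with the NEBNext Ultra RNA kit, per the labels' protocols. Reads were processed with cutadapt, HISAT2 and StringTie on the rat build Rnor_6.0, per the submitters' processing notes. The sources used here give no versions, annotation, read totals or strand use, so genes that overlap on opposite strands cannot be told apart. The authors deposited FPKM values for 22250 genes, of which 3950 are at 0 in every library. FPKM is a share of the library, so a group with more RNA of a few kinds shows less of the others.

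The 13172 genes that reached 1 FPKM in 5 or more libraries were fitted together over 15 libraries as log2(FPKM + 1) with limma 3.58.1 (trend) in R 4.3.3. Fold changes are on that scale, which understates those of low genes. Tests were two-sided and adjusted by Benjamini-Hochberg over all genes in a comparison. The script was tested on simulated data. Values in every library are given for the gene of highest mean in each role and for up to 6 called genes per comparison with the largest change relative to the median of all genes. Of genes outside the 33, up to 3 called genes of lowest p are named per list and comparison. The members and lists were chosen with earlier results of these data known. Alternatives were other pseudocounts, filters and scalings, a replicate block, library weights, and leaving out libraries. Promoters came from RefSeq (GRCr8), and gene coordinates of Rnor_6.0 were not used here. Tables and figures were made with Python 3.11.15, pandas 2.3.3 and matplotlib 3.10.9.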

Additional observations from a re-analysis of the deposited data

Results flagged for a closer look

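Over the 33 genes and 3 groups, 99 groups of 5 libraries were searched for a library far from the other 4 (Dixon's criterion at 95%), and 5 were found, where chance flags about 1 in 20 groups. Lrp6 had an FPKM of 2.37 in COPD 5, against 1.17 in the nearest COPD library, and 6.99 in control 1, against 15.8 in the nearest control library. Ctnnb1 had 79.9 in COPD 5, against 57.8 in the nearest COPD library. Wnt5b had 3.09 in WDD 1, against 4.71 in the nearest WDD library, and 6.64 in control 2, against 3.89 in the nearest control library.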

How the results depend on the processing

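Depth limits low genes most: Wnt9a, Fzd5, Fzd7 and Sfrp1 were near or under 1 FPKM in COPD. The libraries differ in the share of mitochondrial RNA and in neutrophil content, and the number of calls changed with the scaling. Counts are given as Wnt genes called higher and lower by limma. Shares of all genes stand above for the deposited values, median-of-ratios scaling and quantile normalisation with all libraries. They are not given for the other settings, whose counts therefore cannot be set against the rest of the transcriptome. COPD against control gave 1 and 32, and 0 and 32 without a filter on low values and with a replicate block, 0 and 21 among 21 genes at a mean FPKM of at least 5, 1 and 28 with median-of-ratios scaling and 1 and 23 with quantile normalisation. WDD against COPD gave 30 and 0, 21 and 0 among the 21 genes, 20 and 0 with median-of-ratios scaling, 20 and 1 with quantile normalisation, 26 and 0 after scaling without mitochondrial genes, and 28 and 1 without WDD 4 and WDD 5. WDD against control gave 0 and 19, 0 and 11 among the 21 genes, 0 and 12 with median-of-ratios scaling, 1 and 12 with quantile normalisation, 1 and 25 with library weights and without COPD 1 and COPD 5, 1 and 18 with median-of-ratios scaling without COPD 1 and COPD 5, 0 and 26 with only the 2 groups compared, 0 and 24 after scaling without mitochondrial genes, 0 and 17 with either other pseudocount and 0 and 14 without WDD 4 and WDD 5. Leaving out 1 library at a time gave 32 to 33 calls in COPD against control (0 to 1 higher, 32 lower), 29 to 31 in WDD against COPD (29 to 31 higher, 0 lower) and 15 to 24 in WDD against control (0 to 1 higher, 15 to 23 lower). The labels do not say whether same-numbered libraries belong together. Of 15 same-numbered pairs, 1 had a correlation of deviations above 0.1, which cannot show whether the libraries were paired. With the replicate block the counts in WDD against COPD and WDD against control were 30 and 0, and 0 and 20.

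Direction turned in 40 of 2835 values under 29 alternatives, for 15 of 99 gene comparisons, and the cause was not tested. Wnt2 in COPD against control was 0.29 with quantile normalisation. Nkd1 in COPD against control was 0.21 with median-of-ratios scaling without COPD 1 and COPD 5. Ctnnb1 in WDD against COPD was -0.26 with median-of-ratios scaling. Sfrp2 in WDD against COPD was -0.42 with median-of-ratios scaling, -0.53 with quantile normalisation, -0.22 after scaling without mitochondrial genes, -0.11 with library weights, -0.32 without WDD 4, -0.30 without WDD 5, -0.012 without COPD 2, -0.22 without COPD 5, -0.11 without COPD 1 and COPD 5, -0.98 without WDD 4 and WDD 5 and -0.51 with median-of-ratios scaling without COPD 1 and COPD 5. Wnt2 in WDD against COPD was -0.21 with median-of-ratios scaling, -0.49 with quantile normalisation, -0.0554 after scaling without mitochondrial genes and -0.14 with median-of-ratios scaling without COPD 1 and COPD 5. Fzd5 in WDD against COPD was -0.20 with quantile normalisation. Nkd1 in WDD against COPD was -0.000292 with median-of-ratios scaling without COPD 1 and COPD 5. Lef1 in WDD against control was 0.025 with median-of-ratios scaling, 0.22 with quantile normalisation and 0.025 with median-of-ratios scaling without COPD 1 and COPD 5. Nkd1 in WDD against control was 0.21 with median-of-ratios scaling, 0.018 with library weights, 0.0338 without control 2 and 0.21 with median-of-ratios scaling without COPD 1 and COPD 5. Porcn in WDD against control was 0.0513 with quantile normalisation. Tcf7l1 in WDD against control was 0.0255 with quantile normalisation. Wif1 in WDD against control was -0.0636 after scaling without mitochondrial genes. Wnt11 in WDD against control was -0.13 after scaling without mitochondrial genes, -0.00889 without WDD 2, -0.0323 without WDD 3, -0.0135 without WDD 5, -0.0261 without control 4 and -0.0865 without control 5. Wnt5b in WDD against control was -0.0848 after scaling without mitochondrial genes, -0.00104 without control 4 and -0.0266 without WDD 4 and WDD 5. Rspo1 in WDD against control was -0.0468 without WDD 4 and WDD 5. Over all fits that leave out 1 library the values ran from -0.32 to 0.39 for Sfrp2 in WDD against COPD, -0.0865 to 0.13 for Wnt11 in WDD against control, -0.00104 to 0.18 for Wnt5b in WDD against control and -0.13 to 0.0338 for Nkd1 in WDD against control. The alternatives without WDD 4 and WDD 5, and with scaling and without COPD 1 and COPD 5, were chosen after seeing the data.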
